A study of Mus musculus with 32 samples.

Results

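Livers of female Crl:CD1(ICR) mice, an outbred stock, were compared at day 3 of treatment with an inhibitor of the microRNA miR-802-5p or with a control oligonucleotide. The treated group was 5 females given LNA-802 and the control group 3 females given a scrambled LNA. Both groups received 2 subcutaneous injections of 25 mg/kg, at 9 weeks of age, and carried no transgene or deletion. The labels give an age of 10 weeks for every group of the study. The study held 32 mice in 8 groups. The other groups used here are 5 LNA-802 and 3 scrambled females at day 6, and 5 males given LNA-1948, an inhibitor of another microRNA, with 3 scrambled males at each day. The genes described are the 9418 of 24197 in the authors' deposited table that reached 1 FPKM (fragments mapped per unit of transcript length and library size) in either female group of day 3. Of the other 14779 genes, 6466 were listed at 0 in both groups. At the edge of this rule, Frat1 was just inside with 1.00 FPKM in LNA-802 and 0.966 FPKM in scrambled females of the authors' deposited table, and the microRNA precursor row Mir6963 was just outside with 0.590 FPKM in LNA-802 and 0.9998 FPKM in scrambled females. The rule used the higher of the 2 group means, so a gene under 1 FPKM in 1 group could enter through the other group alone.

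A locked nucleic acid (LNA) oligonucleotide pairs with a mature microRNA and keeps it from its messenger RNA targets. A microRNA finds its targets mainly through its seed, the bases near its 5' end, which pair with complementary sites in 3' untranslated regions (3' UTRs) and lower the stability or translation of the transcript. Targets of a blocked microRNA would therefore be looked for among transcripts that are higher with the inhibitor. miR-802 is a liver-enriched microRNA that is known for its rise in obese mouse liver.

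The mature microRNA and both oligonucleotides are shown because the seed sites searched below derive from them. Capitals mark the seed, bases 2 to 8 of the microRNA, and the 7 bases of LNA-802 that pair with it; LNA-802 has 15 bases and pairs without a gap with bases 2 to 16 of the microRNA. The scrambled LNA, also 15 bases long, pairs with the microRNA at no more than 5 positions in any ungapped register. The microRNA sequence is RefSeq's (GRCm38.p6 chr16:93369737-93369758, plus strand).
mmu-miR-802-5p: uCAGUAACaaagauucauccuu
LNA-802: gaatctttGTTACTG
scrambled LNA: acgtctatacgccca

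Cwc22 and Ostm1 rose, and they were the only genes at 1 FPKM or more that passed an edgeR adjusted p of 0.05 in the authors' deposited table, 2 of 9418 or 0.0212%. Cwc22 encodes a spliceosome factor that helps load the exon junction complex, and Ostm1 encodes the beta subunit of a lysosomal chloride transporter that is needed by osteoclasts. Below 1 FPKM, Rufy4, of the RUN and FYVE domain family, and Col4a3, a collagen gene of basement membranes, fell, which makes 4 genes over the whole table. Rufy4 averaged 0.0169 FPKM in LNA-802 and 0.143 FPKM in scrambled females of the authors' deposited table (adjusted edgeR p = 0.0266). Col4a3 averaged 0.0338 FPKM in LNA-802 and 0.123 FPKM in scrambled females of the authors' deposited table (adjusted edgeR p = 0.0299). The table holds 1 mean per group and no values per mouse, so the spread between mice and the depth of each library are unknown and no error stands beside any group mean below.

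Cwc22 (mm9 chr2:77733709-77784413) averaged 19.9 FPKM in LNA-802 and 9.28 FPKM in scrambled females at day 3, a ratio of 2.10 in the authors' deposited table (adjusted edgeR p = 0.0266). At day 6 the means were 13.6 FPKM in LNA-802 and 14.5 FPKM in scrambled females of the authors' deposited table (edgeR p adjusted over all genes = 1). In males of the authors' deposited table, Cwc22 averaged 8.10 FPKM with LNA-1948 and 8.23 FPKM with the scrambled LNA at day 3, and 26.1 FPKM with LNA-1948 and 9.71 FPKM with the scrambled LNA at day 6. The Cwc22 mean was thus highest in LNA-1948 males at day 6 and second highest in LNA-802 females at day 3. Cwc22 lies in a segment that is duplicated in some mouse stocks, and reads of such copies cannot be told apart in this table. Among 18 genes of the exon junction complex and of the splicing partners of Cwc22, Cwc22 itself included, 15 had a ratio above 1 and the median log2 ratio was 0.10, against 0.01 over all genes; Cwc22 and Snrnp200, the helicase that unwinds spliceosomal RNA, were at an unadjusted p under 0.05.

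Ostm1 (mm9 chr10:42398721-42422268) averaged 3.64 FPKM in LNA-802 and 2.10 FPKM in scrambled females at day 3, a ratio of 1.69 in the authors' deposited table (adjusted edgeR p = 0.0151). It also rose at day 6, in other mice, with means of 3.78 FPKM in LNA-802 and 2.63 FPKM in scrambled females of the authors' deposited table (edgeR p adjusted over all genes = 0.0212). In males of the authors' deposited table, Ostm1 averaged 2.27 FPKM with LNA-1948 and 2.41 FPKM with the scrambled LNA at day 3, and 2.65 FPKM with LNA-1948 and 2.30 FPKM with the scrambled LNA at day 6. Both LNA-802 means of Ostm1 thus lay above the other 6 group means. Of 19 lysosomal genes, Ostm1 included, 13 had a ratio above 1 with a median log2 ratio of 0.02. The only other lysosomal gene at an unadjusted p under 0.05 was Ctsl, which encodes the protease cathepsin L. It averaged 163 FPKM in LNA-802 and 117 FPKM in scrambled females of the authors' deposited table (adjusted edgeR p = 0.786).

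Over all 9418 genes, the ratios were narrow and centred near 1. The median log2 ratio was 0.01, from -0.31 at the 5th percentile to 0.28 at the 95th percentile, and 5032 genes or 53.4% lay above a ratio of 1 against 4386 below it. By the ratio of mean FPKM, which lacks the authors' normalization, 63.0% lay above 1 with a median log2 ratio of 0.05, so a list's share above 1 is to be read against the share over all genes on the same scale. A total of 224 genes lay beyond 1.5-fold and 73, or 0.775%, beyond 2-fold. An unadjusted edgeR p under 0.05 was reached by 385 genes or 4.09%, of which 161 or 1.71% were higher and 224 or 2.38% lower. That share is below the 5% that such a threshold gives without any effect, and single genes named below from this class are given as group means that did not pass the adjusted threshold. The share hardly depended on level, at 4.20% of 5163 genes between 1 and 5 FPKM, 3.84% of 2893 between 5 and 20 FPKM, 3.89% of 1079 between 20 and 100 FPKM and 5.30% of 283 above 100 FPKM. An edgeR adjusted p under 0.2 was reached by 19 genes, 5 higher and 14 lower. After Cwc22 and Ostm1, the higher ones were Nop58, a core protein of box C/D small nucleolar RNPs, the mitochondrial aldehyde dehydrogenase gene Aldh1b1, and Rabac1, which encodes a Rab acceptor of the Golgi.

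**Figure D1:**
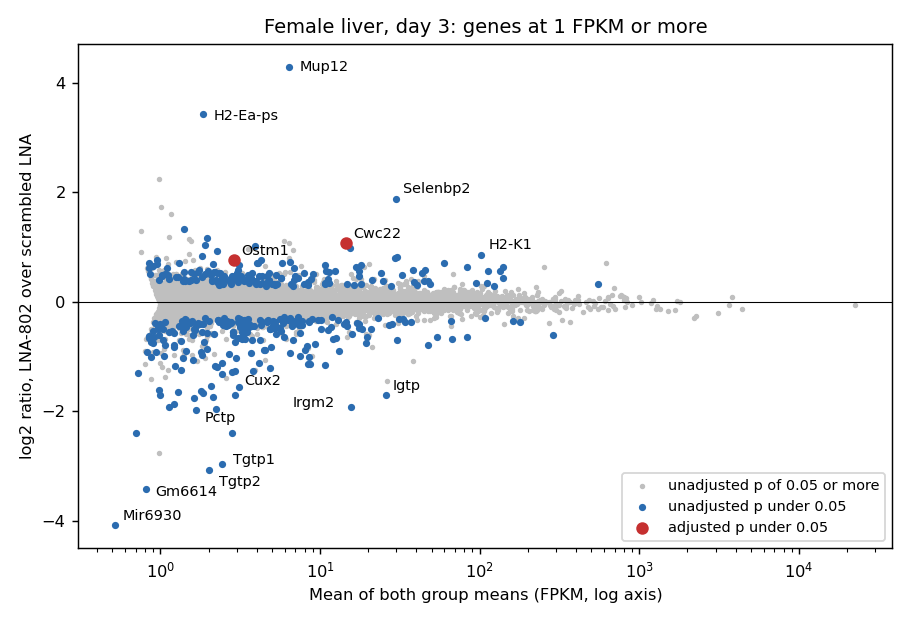
Mean FPKM of both groups (x axis, log) against the authors' log2 ratio of LNA-802 over scrambled LNA at day 3 (y axis), 1 point for each of 9418 genes at 1 FPKM or more; colours give the edgeR p class. Cwc22 and Ostm1 are the 2 genes that passed an adjusted p of 0.05, while several larger ratios, among them those of Mup12, Tgtp1 and Tgtp2, did not.

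The 10 largest positive ratios among genes at an unadjusted p under 0.05 included genes whose scrambled means differed widely between day 3 and day 6. Mup12, a major urinary protein gene, averaged 12.1 FPKM in LNA-802 and 0.601 FPKM in scrambled females at day 3, and 5.44 FPKM in LNA-802 and 10.7 FPKM in scrambled females at day 6 of the authors' deposited table. H2-Ea-ps, an MHC class II pseudogene, averaged 3.38 FPKM in LNA-802 and 0.302 FPKM in scrambled females at day 3, and 0.165 FPKM in LNA-802 and 2.45 FPKM in scrambled females at day 6 of the authors' deposited table. Both therefore lay on opposite sides at the 2 days. Selenbp2, which encodes a selenium-binding protein known as male-biased in mouse liver, averaged 47.1 FPKM in LNA-802 and 12.5 FPKM in scrambled females at day 3, and 45.2 FPKM in LNA-802 and 25.8 FPKM in scrambled females at day 6 of the authors' deposited table. Selenbp2 was higher with LNA-802 at both days and lay between 105.9 and 283 FPKM in the male groups. Cyp2d9, a male-biased steroid hydroxylase, averaged 20.6 FPKM in LNA-802 and 10.1 FPKM in scrambled females at day 3 of the authors' deposited table (adjusted edgeR p = 1). Its day 6 means were 27.1 FPKM in LNA-802 and 9.62 FPKM in scrambled females of the authors' deposited table (adjusted edgeR p = 0.00803). The other 6 of the 10 largest positive ratios belonged to Bin2, Tuft1, Cwc22, Lrtm1, Akr1e1 and Ddit4, the last a stress-induced inhibitor of mTORC1, with log2 ratios between 0.93 and 1.33. Mup and Cyp2d genes have close copies whose reads the counting could have divided, and their single values are uncertain.

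The 10 largest negative ratios were led by the small RNA row Mir6930, listed at 0 in LNA-802 females and at 1.04 FPKM in scrambled females, and by Gm6614. Gm6614, a predicted gene, averaged 0.139 FPKM in LNA-802 and 1.49 FPKM in scrambled females of the authors' deposited table (adjusted edgeR p = 0.191). Another 4 were Tgtp2, Tgtp1 and Irgm2, interferon-inducible GTPases described below, and Gm12250, of the same superfamily. Pctp, which encodes a phosphatidylcholine transfer protein, averaged 0.682 FPKM in LNA-802 and 2.64 FPKM in scrambled females of the authors' deposited table (adjusted edgeR p = 1). At day 6 it fell, with 0.438 FPKM in LNA-802 and 2.52 FPKM in scrambled females of the authors' deposited table (adjusted edgeR p = 0.000501). Pctp was also lower with LNA-1948 in males, with 1.25 FPKM against 3.37 FPKM with the scrambled LNA at day 3 and 0.308 FPKM against 1.32 FPKM at day 6 of the authors' deposited table. The remaining 3 were Snord55, the retinoic acid hydroxylase gene Cyp26b1 and the serpin gene Serpina3f, each under 1 FPKM in LNA-802 females. Like Mir6930, Gm6614 and Pctp, these 3 met the rule of 1 FPKM only through the scrambled group. Among the 4 genes of the GTPase superfamily, the same held at least for Tgtp2.

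Sites for the seed of miR-802-5p were searched in the longest 3' UTR of each gene, an analysis chosen after the values were seen. An 8mer site has the letters GTTACTGA, a 7mer-m8 site GTTACTG without that last A, and a 7mer-A1 site TTACTGA without that first G, on the transcript strand only; 8683 of the 9418 genes matched a UTR. Each gene was put in the class of its longest site. Of 270 genes with an 8mer, 47.0% had a ratio above 1, against 52.9% of 646 with a 7mer-m8, 49.6% of 617 with a 7mer-A1 and 54.9% of 7150 with no site. Their median log2 ratios were -0.008 for 8mer genes, 0.009 for 7mer-m8 genes, -0.001 for 7mer-A1 genes and 0.015 for genes with no site. With no limit on UTR length, no class with a site had a median above that of genes with no site. An unadjusted p under 0.05 was reached by 14 genes with an 8mer or 5.19%, 5 higher and 9 lower, and by 293 with no site or 4.10%, 130 higher and 163 lower. Genes with a site have longer UTRs, with a median of 2554 bases for 8mer genes and 902 bases for genes with no site. Among UTRs of 1000 to 4000 bases the order of the classes was another: 46.6% of 163 genes with an 8mer lay above 1, 52.9% of 410 with a 7mer-m8, 50.5% of 406 with a 7mer-A1 and 49.0% of 2991 with no site. Their median log2 ratios were -0.008 for 8mer genes, 0.007 for 7mer-m8 genes, 0.001 for 7mer-A1 genes and -0.004 for genes with no site, so both 7mer classes lay above and the 8mer class below genes with no site. Genes with at least 2 sites of the 8mer or 7mer-m8 kind had a median of -0.021 over 114 genes of any UTR length and of 0.007 over the 52 with UTRs of 1000 to 4000 bases. The direction of these small differences thus depended on the UTR length. At day 6, in other mice, the medians were -0.003 for 8mer genes and 0.012 for genes with no site, and in males given LNA-1948 at day 3 they were -0.020 and -0.003.

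**Figure D2:**
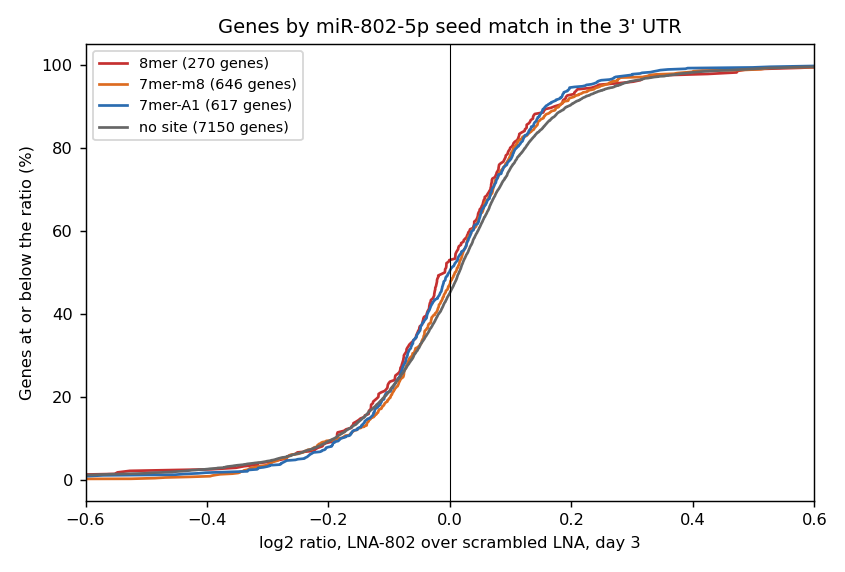
Cumulative share of genes (y axis, %) by log2 ratio of LNA-802 over scrambled LNA at day 3 (x axis), with 1 line per class of miR-802-5p seed match in the 3' UTR. The 4 lines run close together, and the 8mer line (270 genes) lies at or left of the line of genes with no site (7150 genes) around a ratio of 1.

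A reported target with an 8mer, Sdc4, and 3 genes with an 8mer that were higher at an unadjusted p under 0.05 are shown with the bases around the site; capitals mark the match, and positions are those of the match in GRCm38 with GENCODE UTRs.
Sdc4 (chr2:164424307-164424314, minus strand): cactgttgtctGTTACTGAtcttttttttt
Tor1b (chr2:30958916-30958923, plus strand): tttggactgctGTTACTGAtctccaacttt
Nolc1 (chr19:46085184-46085191, plus strand): ttacctataatGTTACTGAtacagactagc
Acly (chr11:100476482-100476489, minus strand): ccgacttgtctGTTACTGAagtgtgggtcc
Sdc4, a heparan sulfate proteoglycan of the cell surface, averaged 93.0 FPKM in LNA-802 and 98.2 FPKM in scrambled females of the authors' deposited table. Another 2 reported targets, Rdx and Arhgef12, carry 7mer sites. Rdx, which links actin to the membrane of bile canaliculi, averaged 29.04 FPKM in LNA-802 and 27.4 FPKM in scrambled females of the authors' deposited table. Arhgef12, which encodes a guanine nucleotide exchange factor, averaged 9.51 FPKM in LNA-802 and 9.75 FPKM in scrambled females of the authors' deposited table. Sdc4, Rdx and Arhgef12 did not reach an unadjusted p under 0.05; Fzd5 was under 1 FPKM and Neurod1 was listed at 0.

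Of the 14 genes with an 8mer at an unadjusted p under 0.05, the 5 higher ones were Nolc1, Tor1b, Bag3, Gtpbp4 and Acly. Tor1b, which encodes an ATPase of the endoplasmic reticulum and nuclear envelope, averaged 6.28 FPKM in LNA-802 and 4.37 FPKM in scrambled females of the authors' deposited table (adjusted edgeR p = 0.494). It rose at day 6, with 7.02 FPKM in LNA-802 and 4.64 FPKM in scrambled females of the authors' deposited table (adjusted edgeR p = 0.00297), and also carries a 7mer-m8 site in the same UTR. Tor1b lay between 4.11 and 4.97 FPKM in the male groups. Nolc1, a nucleolar phosphoprotein gene, averaged 3.84 FPKM in LNA-802 and 2.36 FPKM in scrambled females of the authors' deposited table (adjusted edgeR p = 0.217). Neither Cwc22, Ostm1 nor Cux2 has a match in UTRs of 354, 1921 and 4229 bases. The row of the miR-802 precursor, Mir802, averaged 0.388 FPKM in LNA-802 and 0.246 FPKM in scrambled females of the authors' deposited table; poly(A) libraries do not measure the mature microRNA, so its inhibition cannot be read here.

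The interferon-inducible GTPases lay lower in LNA-802 females as a group, while no single member passed an adjusted p of 0.05. These proteins, the guanylate-binding proteins (Gbp) and the immunity-related GTPases (Irgm, Igtp, Iigp, Tgtp), are made under interferon gamma and act on vacuoles of intracellular pathogens. Of 17 listed, 16 reached 1 FPKM, all 16 had a ratio below 1, and 14 were at an unadjusted p under 0.05, against 2.38% of all genes on that side. Their median log2 ratio was -1.02, between -3.07 (Tgtp2) and -0.16. A member under 1 FPKM in LNA-802 females, such as Tgtp2, met the rule of 1 FPKM only through the scrambled group. For such a member the rule itself fixed a ratio below 1. Igtp averaged 12.3 FPKM in LNA-802 and 39.1 FPKM in scrambled females at day 3, and 12.1 FPKM in LNA-802 and 13.7 FPKM in scrambled females at day 6 of the authors' deposited table (day 3 adjusted edgeR p = 0.522). In males it lay between 8.57 and 12.5 FPKM, so the day 3 scrambled females were the high group among all 8. Irgm2 averaged 6.65 FPKM in LNA-802 and 24.4 FPKM in scrambled females at day 3, and 8.72 FPKM in LNA-802 and 9.44 FPKM in scrambled females at day 6 of the authors' deposited table (day 3 adjusted edgeR p = 0.191). Iigp1, the most abundant member by FPKM, averaged 66.5 FPKM in LNA-802 and 100.7 FPKM in scrambled females at day 3 of the authors' deposited table. Tgtp2 averaged 0.436 FPKM in LNA-802 and 3.57 FPKM in scrambled females at day 3, and 0.286 FPKM in LNA-802 and 0.789 FPKM in scrambled females at day 6 of the authors' deposited table. Tgtp1 and Tgtp2 are close copies, so their single values are uncertain.

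Summed over the GTPase list, the means at day 3 came to 143.5 FPKM in LNA-802 and 259.9 FPKM in scrambled females, and at day 6 to 131.3 FPKM in LNA-802 and 163.6 FPKM in scrambled females. The male groups held between 125.6 and 156.6 FPKM. The scrambled day 3 mean was the highest of the 4 female groups for 15 of the 16 measured GTPases, against 1493 or 15.9% of all 9418 genes. Only genes with the scrambled mean above the LNA-802 mean at day 3 can be counted, which held for all 16. The day 3 ratios thus fix part of this count, and the share over all genes is not a like comparison. At day 6 the median log2 ratio of the list was -0.38, again with no member above 1 and 6 at an unadjusted p under 0.05. The gene of interferon gamma itself, Ifng, averaged 0.00596 FPKM in LNA-802 and 0.0197 FPKM in scrambled females of the authors' deposited table. Markers of T and NK cells summed to 1.86 FPKM in LNA-802 and 1.82 FPKM in scrambled females, with 0 of 11 at 1 FPKM or more. In liver RNA, fewer cells of a type and less RNA per cell cannot be told apart.

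Promoters of Igtp, Tgtp2 and Gbp2 are shown because they hold 1 or both of the 2 elements through which interferons are known to act. These are the interferon-stimulated response element (ISRE, letters GAAANNGAAA) and the gamma-activated site (GAS, letters TTCNNNGAA). Both strands of the 250 bases before to 50 bases after each RefSeq start were searched; the 2 motifs can overlap. An ISRE match lay in 8 of 9 GTPase promoters that were available, against 3.58% of 7064 promoters of genes at 1 FPKM, and a GAS match in 5 of 9 against 8.08%. The ISRE match is not particular to the GTPases. Among type I interferon-stimulated genes, described below, it lay in 8 of 11 promoters and a GAS match in 1 of 11. Capitals mark the matches.
Igtp (GRCm38.p6 chr11:58199306-58199605, plus strand): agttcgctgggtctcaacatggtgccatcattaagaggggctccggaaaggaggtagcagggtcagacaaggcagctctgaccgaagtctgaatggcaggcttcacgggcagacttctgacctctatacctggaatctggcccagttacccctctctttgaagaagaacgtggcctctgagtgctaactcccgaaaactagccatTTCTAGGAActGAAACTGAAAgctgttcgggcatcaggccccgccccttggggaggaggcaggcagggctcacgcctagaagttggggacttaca
Tgtp2 (GRCm38.p6 chr11:49064163-49064462, minus strand): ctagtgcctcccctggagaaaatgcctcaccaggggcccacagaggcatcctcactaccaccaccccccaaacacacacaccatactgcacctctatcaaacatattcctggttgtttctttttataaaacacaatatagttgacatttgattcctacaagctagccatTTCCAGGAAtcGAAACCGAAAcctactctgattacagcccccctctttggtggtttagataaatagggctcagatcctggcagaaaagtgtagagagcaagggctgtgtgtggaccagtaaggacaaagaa
Gbp2 (GRCm38.p6 chr3:142620413-142620712, plus strand): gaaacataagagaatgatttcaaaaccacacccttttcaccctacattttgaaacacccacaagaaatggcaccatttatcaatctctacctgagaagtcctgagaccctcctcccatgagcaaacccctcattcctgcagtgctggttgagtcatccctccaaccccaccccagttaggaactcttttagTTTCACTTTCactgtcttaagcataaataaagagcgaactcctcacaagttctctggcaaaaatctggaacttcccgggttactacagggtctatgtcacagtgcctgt
In Igtp and Tgtp2 the GAS match stands just before the ISRE match, while Gbp2 has an ISRE match and no GAS match. A match describes these letters and not bound protein.

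Other interferon and antigen presentation genes followed in part. Of 18 type I interferon-stimulated genes, 2 had a ratio above 1, the median log2 ratio was -0.22 and 2 were at an unadjusted p under 0.05. One of these was Rtp4, with 2.42 FPKM in LNA-802 and 3.72 FPKM in scrambled females of the authors' deposited table (adjusted edgeR p = 1). MHC class II genes present extracellular peptides, and all 4 at 1 FPKM had a ratio below 1, with a median log2 ratio of -0.81 and 3 at an unadjusted p under 0.05. The invariant chain gene Cd74 averaged 15.6 FPKM in LNA-802 and 23.7 FPKM in scrambled females of the authors' deposited table, and H2-Ab1 averaged 4.51 FPKM in LNA-802 and 8.42 FPKM in scrambled females. Summed class II means came to 32.0 FPKM in LNA-802 and 52.0 FPKM in scrambled females at day 3, and 29.02 FPKM in LNA-802 and 37.5 FPKM in scrambled females at day 6; the day 3 scrambled mean was the highest of the 4 female groups for 4 of 4.

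MHC class I genes were divided. The classical genes H2-K1 and H2-D1 were higher in LNA-802 females, while the peptide transporter gene Tap1 and the class I transactivator gene Nlrc5 were lower, all 4 at an unadjusted p under 0.05. H2-K1 averaged 133 FPKM in LNA-802 and 71.5 FPKM in scrambled females at day 3, and 95.5 FPKM in LNA-802 and 127 FPKM in scrambled females at day 6 of the authors' deposited table. H2-D1 averaged 136 FPKM in LNA-802 and 89.6 FPKM in scrambled females at day 3, and 98.4 FPKM in LNA-802 and 137 FPKM in scrambled females at day 6 of the authors' deposited table. Both lay on the other side at day 6. Tap1 averaged 3.62 FPKM in LNA-802 and 6.25 FPKM in scrambled females of the authors' deposited table, and Nlrc5 averaged 1.26 FPKM in LNA-802 and 2.32 FPKM in scrambled females. MHC haplotypes differ between outbred mice and class I genes have close copies, which makes their single values uncertain; H2-Q7 and H2-Q9 carry the same log2 ratio, 0.70, in the table.

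Markers of Kupffer cells, the resident macrophages of liver, had 1 of 18 ratios above 1 and a median log2 ratio of -0.21, with Marco and Ctss at an unadjusted p under 0.05. The Kupffer-specific lectin gene Clec4f averaged 16.7 FPKM in LNA-802 and 16.6 FPKM in scrambled females of the authors' deposited table, with an authors' ratio of 0.978. The 18 markers summed to 139.0 FPKM in LNA-802 and 150.4 FPKM in scrambled females. At day 6 the list again had 1 of 18 ratios above 1, with a median log2 ratio of -0.28 and 8 markers lower at an unadjusted p under 0.05. The part of Kupffer cells in the GTPase values was not tested. B and plasma cell markers summed to 1.54 FPKM in LNA-802 and 1.23 FPKM in scrambled females, and neutrophil markers to 0.97 FPKM in LNA-802 and 1.28 FPKM in scrambled females, with no member at 1 FPKM; 3 neutrophil markers were listed at 0 in LNA-802 and 2 in scrambled females. Sinusoidal endothelial markers had 8 of 16 ratios above 1 with a median log2 ratio of 0.00, and 11 of 16 by the ratio of mean FPKM. Hepatocyte markers had 5 of 14 above 1 with a median of -0.05, and the tissue carried the abundant hepatocyte RNAs its label implies, with albumin (Alb) at 22392 FPKM in LNA-802 and 22690 FPKM in scrambled females of the authors' deposited table.

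Genes of cholesterol synthesis lay higher in LNA-802 females, also with no single gene past the adjusted threshold. The mevalonate pathway turns acetyl-CoA into squalene, late sterol enzymes turn squalene into cholesterol, and the transcription factor SREBP2 is known to drive both. All 9 mevalonate genes at 1 FPKM had a ratio above 1, with a median log2 ratio of 0.56, between 0.18 and 0.73, and 6 were at an unadjusted p under 0.05 (Acat2, Mvk, Pmvk, Mvd, Fdps and Fdft1), against 1.71% of all genes on that side. Hmgcs1, the tenth, was listed at 0 in all 8 groups, which may be a failed estimate and says nothing of its expression. Fdps, farnesyl diphosphate synthase, averaged 74.6 FPKM in LNA-802 and 44.8 FPKM in scrambled females at day 3, and 64.4 FPKM in LNA-802 and 63.5 FPKM in scrambled females at day 6 of the authors' deposited table (day 3 adjusted edgeR p = 1). Mvk, mevalonate kinase, averaged 8.40 FPKM in LNA-802 and 5.35 FPKM in scrambled females at day 3, and 6.34 FPKM in LNA-802 and 7.43 FPKM in scrambled females at day 6 of the authors' deposited table (day 3 adjusted edgeR p = 0.786). The day 3 scrambled mean was the lowest of the 4 female groups for all 9 genes, against 3379 or 35.9% of all genes. Only genes with the LNA-802 mean above the scrambled mean at day 3 can be counted. These were 63.0% of all genes and all 9 here, so the day 3 ratios fix part of this count.

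The summed mevalonate means came to 197.4 FPKM in LNA-802 and 126.9 FPKM in scrambled females at day 3, and 176.3 FPKM in LNA-802 and 185.0 FPKM in scrambled females at day 6. The median log2 ratio at day 6 was -0.13, on the other side. Of 12 late sterol genes, 11 had a ratio above 1 at day 3 with a median of 0.39, and Dhcr7, which makes cholesterol from its last precursor, was at an unadjusted p under 0.05, with 20.6 FPKM in LNA-802 and 13.01 FPKM in scrambled females of the authors' deposited table. Sqle, squalene epoxidase, averaged 18.3 FPKM in LNA-802 and 12.7 FPKM in scrambled females of the authors' deposited table. Their sums were 465.4 FPKM in LNA-802 and 381.2 FPKM in scrambled females at day 3, and 422.0 FPKM in LNA-802 and 460.6 FPKM in scrambled females at day 6. Genes of sterol uptake and SREBP control had 6 of 15 above 1 and a median of -0.01. By the ratio of mean FPKM this turned to 10 of 15 above 1 with a median of 0.03, near the 63.0% of all genes on that scale. Srebf2, the SREBP2 gene, averaged 8.78 FPKM in LNA-802 and 8.26 FPKM in scrambled females of the authors' deposited table. Lpin1 and the sterol exporter genes Abcg5 and Abcg8 were lower at an unadjusted p under 0.05. At day 6 the log2 ratio was -0.44 for Lpin1, while Abcg5 and Abcg8 lay on the other side, at 0.39 and 0.35. Abcg5 was then at an unadjusted edgeR p under 0.05 as well. Fatty acid synthesis genes had 14 of 17 above 1 with a median of 0.19; Acly and Acss2, which both make cytosolic acetyl-CoA, were at an unadjusted p under 0.05. Acss2 averaged 39.2 FPKM in LNA-802 and 21.8 FPKM in scrambled females of the authors' deposited table.

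Sterol promoters were searched for the letters TCACNCCAC (a sterol regulatory element) and CCAAT (the NF-Y box), on both strands of the same window. The sterol element matched 0 of 6 mevalonate and 0 of 10 late sterol promoters, against 1.59% of all, and the CCAAT box 5 of 6 mevalonate and 10 of 10 late sterol promoters, against 42.7% of all. No match says only that these letters are not in this window.

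**Figure D3:**
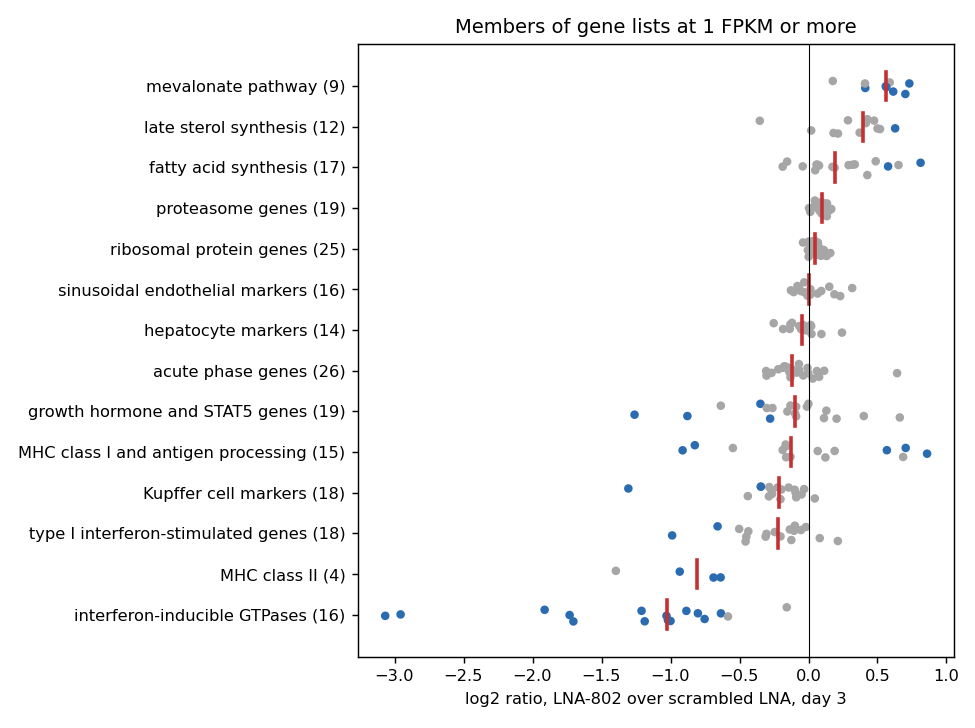
Log2 ratio of LNA-802 over scrambled LNA at day 3 (x axis) for members of 14 gene lists (rows, with the number at 1 FPKM or more), 1 point per gene, blue where the unadjusted p is under 0.05 and grey otherwise; red bars mark list medians. The GTPases (16 genes) lie at a median of -1.02 and the mevalonate genes (9) at 0.56, while the endothelial markers (16) lie between -0.13 and 0.32.

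Some genes that signal hormone and feeding state had lower means in LNA-802 females. The list counts below stand against 53.4% of all genes above a ratio of 1, a median log2 ratio of 0.01, and 2.38% lower at an unadjusted p under 0.05. Of 19 growth hormone and STAT5 genes 5 had a ratio above 1, with a median log2 ratio of -0.10 and 4 lower at an unadjusted p under 0.05 (Stat5b, Cish, Cux2 and Igfbp2). Cux2, a repressor that is female-specific in mouse liver, averaged 1.76 FPKM in LNA-802 and 4.09 FPKM in scrambled females at day 3, and 2.33 FPKM in LNA-802 and 2.24 FPKM in scrambled females at day 6 of the authors' deposited table (day 3 adjusted edgeR p = 0.191). It was at most 0.0781 FPKM in the male groups. Cish, a feedback inhibitor that growth hormone induces, averaged 3.22 FPKM in LNA-802 and 5.76 FPKM in scrambled females at day 3, and 7.63 FPKM in LNA-802 and 7.11 FPKM in scrambled females at day 6 of the authors' deposited table. Of the 9 immediate early genes at 1 FPKM, which respond within minutes to growth factors and handling, Egr1, Junb and Jun were lower at an unadjusted p under 0.05. Egr1 averaged 1.59 FPKM in LNA-802 and 4.59 FPKM in scrambled females of the authors' deposited table (adjusted edgeR p = 0.268). Junb averaged 2.66 FPKM in LNA-802 and 5.64 FPKM in scrambled females of the authors' deposited table. For Cux2, Egr1 and Junb the day 3 scrambled mean again lay above the other female means.

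Glucocorticoid-responsive genes had 4 of 13 ratios above 1 with a median log2 ratio of -0.28, and Fkbp5, Per1, Klf9 and Lpin1 were lower at an unadjusted p under 0.05. Lpin1, a phosphatidate phosphatase and fasting-induced coactivator, averaged 5.75 FPKM in LNA-802 and 11.2 FPKM in scrambled females of the authors' deposited table (adjusted edgeR p = 0.191). In the gluconeogenesis list, 6 of 16 lay above 1 with a median of -0.06 (7 of 16 by the ratio of mean FPKM), and the enzyme gene Pck1 and the coactivator gene Ppargc1a were lower at an unadjusted p under 0.05. Pck1 averaged 231 FPKM in LNA-802 and 342 FPKM in scrambled females at day 3, and 244 FPKM in LNA-802 and 220 FPKM in scrambled females at day 6 of the authors' deposited table (day 3 adjusted edgeR p = 0.786). PPARA targets had 9 of 23 above 1 with a median of -0.04, and 11 of 23 by the ratio of mean FPKM, with Ppara itself and the pantetheinase gene Vnn1 lower. Ppara averaged 14.9 FPKM in LNA-802 and 20.2 FPKM in scrambled females of the authors' deposited table. Acute phase genes had 5 of 26 above 1 with a median of -0.12 and none at an unadjusted p under 0.05; Saa1 averaged 19.5 FPKM in LNA-802 and 21.5 FPKM in scrambled females of the authors' deposited table. Complement and coagulation genes had 6 of 25 above 1 with a median of -0.06, and 10 of 25 by the ratio of mean FPKM, with C2 and F11 lower at an unadjusted p under 0.05.

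Genes of sex-biased expression showed no common shift at day 3. Female-biased genes had 17 of 31 ratios above 1 with a median log2 ratio of 0.01, and male-biased genes 11 of 22 with a median of -0.01, or 13 of 22 by the ratio of mean FPKM. Slco1a1, a male-biased uptake transporter gene, averaged 52.4 FPKM in LNA-802 and 82.0 FPKM in scrambled females at day 3, and 82.4 FPKM in LNA-802 and 79.9 FPKM in scrambled females at day 6 of the authors' deposited table. The 14 Mup genes at 1 FPKM had 3 above 1 and a median of -0.37.

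Signs of a toxic or stress response to the oligonucleotide were looked for in 5 lists. The ATF4 and unfolded protein response genes had 11 of 18 ratios above 1, a median log2 ratio of 0.03 and none at an unadjusted p under 0.05. Hspa5, the chaperone BiP, averaged 188 FPKM in LNA-802 and 176 FPKM in scrambled females of the authors' deposited table. p53 response genes had 5 of 10 above 1 (7 of 10 by the ratio of mean FPKM), NRF2 and glutathione genes 9 of 14, and genes of oligonucleotide sensing and RNase H 4 of 10 (5 of 10 by the ratio of mean FPKM), with none of the 3 lists holding a gene at an unadjusted p under 0.05. Heat shock genes had 9 of 14 above 1, and the cochaperone gene Bag3, with 5.48 FPKM in LNA-802 and 3.85 FPKM in scrambled females of the authors' deposited table, was the only one at an unadjusted p under 0.05 (adjusted edgeR p = 0.786). At day 6, 17 of the 18 ATF4 and unfolded protein response genes lay above 1, with a median of 0.37. Of these genes, 10 were higher at an unadjusted p under 0.05 and 6 passed an edgeR adjusted p of 0.05. Among the p53, NRF2, oligonucleotide sensing and heat shock lists, only the NRF2 list held a gene past that threshold at day 6. At day 3, genes of the microRNA pathway had 5 of 11 above 1 with a median of -0.01, and 7 of 11 by the ratio of mean FPKM. Mt1, a metal-binding metallothionein, averaged 48.5 FPKM in LNA-802 and 57.2 FPKM in scrambled females of the authors' deposited table, and Cyp7a1, the hydroxylase that starts bile acid synthesis, 23.2 FPKM in LNA-802 and 14.5 FPKM in scrambled females (adjusted edgeR p = 1 for both). Cyp7a1 lay on the other side at day 6, with 13.2 FPKM in LNA-802 and 34.7 FPKM in scrambled females of the authors' deposited table (adjusted edgeR p = 0.00021). Housekeeping lists moved by little and together, with 23 of 25 ribosomal protein genes, 19 of 20 oxidative phosphorylation genes and 19 of 19 proteasome genes above 1 at medians of 0.04, 0.07 and 0.10.

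**Figure D4:**
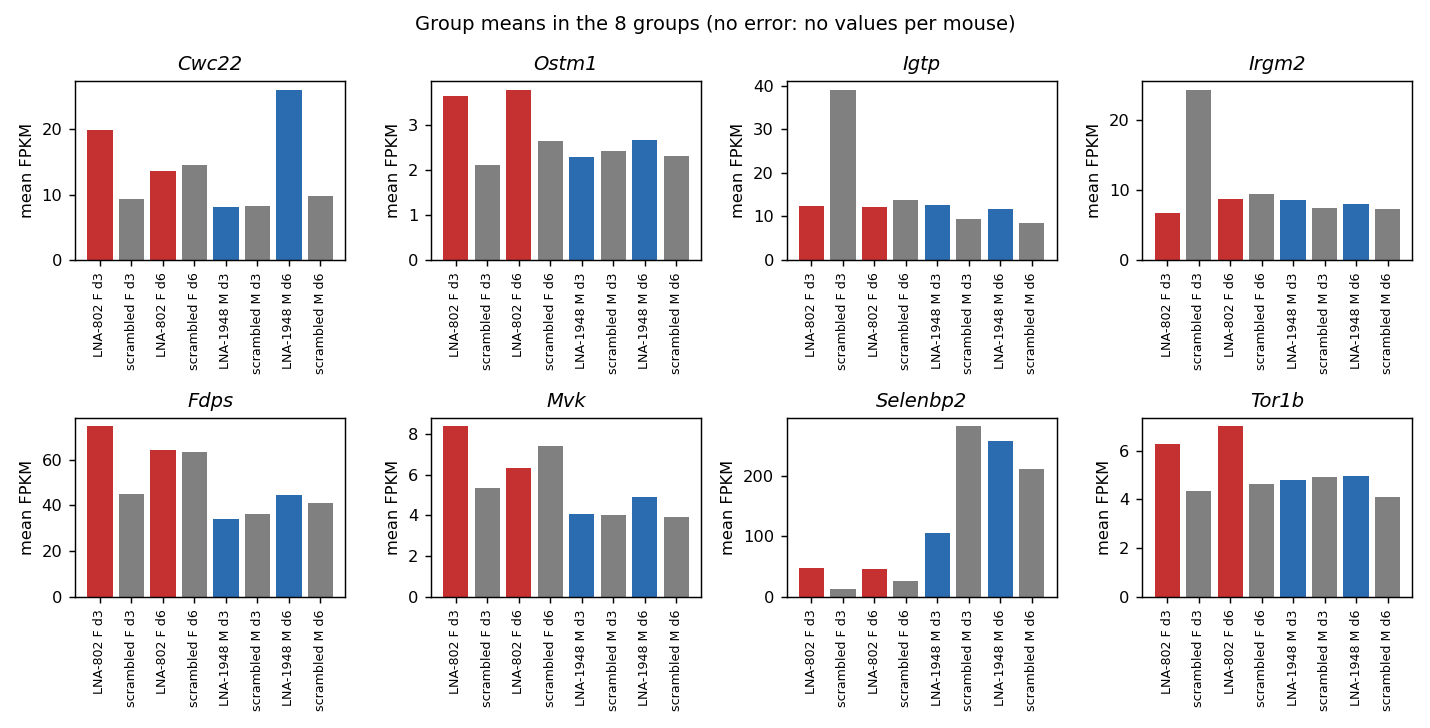
Group mean FPKM (y axis, from 0) in the 8 groups (x axis; F female, M male, d3 and d6 the days) for 8 genes, each LNA group left of its scrambled group; there are no error bars because the table holds no values per mouse. Cwc22 was highest in LNA-1948 males at day 6 (26.1 FPKM), Ostm1 in both LNA-802 groups, and Igtp and Irgm2 in scrambled females at day 3 (39.1 and 24.4 FPKM).

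The same comparison at day 6 used other mice and shares no control with day 3. Of the 385 genes at an unadjusted p under 0.05 at day 3, 262 or 68.1% had the same sign at day 6, against 57.1% of all 9418 genes, and 110 of the 161 higher ones were among them. An unadjusted p under 0.05 at both days was reached by 65 genes, which are 16.9% of those of day 3 and 10.0% of the 649 of day 6, against 6.89% of all genes at day 6. Of these 65, 47 had the same sign, 20 higher and 27 lower, and 18 the opposite sign. At day 6 an edgeR adjusted p of 0.05 was passed by 10 of the 47 and 3 of the 18. Over all genes it was passed by 60, or 0.637%, all among the 649 at an unadjusted p under 0.05. The 65 genes were taken from those 649, so 60 of 649 is the share to set beside them. Across genes, Pearson's r between the log2 ratios of both days was 0.18 over the 385 genes and 0.11 over all 9418; genes are not independent replicates.

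Higher at both days were Ostm1, Rabac1, Tmem123, Tor1b, Cks1b, Ppp1r14b and Cyp2d9, and lower at both days were Pctp, Atp6v1c1 and Prom2; these 10, chosen after their values were seen, passed the adjusted threshold at day 6. Rabac1 averaged 22.4 FPKM in LNA-802 and 13.7 FPKM in scrambled females at day 3 (adjusted edgeR p = 0.191), and 22.97 FPKM in LNA-802 and 13.1 FPKM in scrambled females at day 6 (adjusted edgeR p = 0.000309) of the authors' deposited table. In males Rabac1 lay between 14.6 and 15.3 FPKM, near the scrambled females. Tmem123, a transmembrane glycoprotein gene, averaged 10.7 FPKM in LNA-802 and 7.34 FPKM in scrambled females at day 3 and 10.5 FPKM in LNA-802 and 6.92 FPKM in scrambled females at day 6 of the authors' deposited table (day 6 adjusted edgeR p = 0.00237). Its male means lay between 6.997 and 7.64 FPKM. Atp6v1c1, a subunit of the vacuolar proton pump, averaged 4.74 FPKM in LNA-802 and 6.66 FPKM in scrambled females at day 3 and 4.75 FPKM in LNA-802 and 6.95 FPKM in scrambled females at day 6 of the authors' deposited table (day 6 adjusted edgeR p = 0.0249). For Ostm1, Rabac1, Tmem123 and Tor1b both LNA-802 means lay above the other 6 group means, and for Atp6v1c1 below them.

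Genes on opposite sides at the 2 days included the apoptosis gene Bmf and the Ras-association gene Rassf4. Bmf averaged 0.911 FPKM in LNA-802 and 2.80 FPKM in scrambled females at day 3, and 2.02 FPKM in LNA-802 and 0.876 FPKM in scrambled females at day 6 of the authors' deposited table (day 6 adjusted edgeR p = 0.0145). Rassf4 averaged 1.40 FPKM in LNA-802 and 4.48 FPKM in scrambled females at day 3, and 3.41 FPKM in LNA-802 and 1.17 FPKM in scrambled females at day 6 of the authors' deposited table (day 6 adjusted edgeR p = 0.036). For Rassf4 and Bmf the 2 scrambled female means lay farther apart, in FPKM, than the 2 LNA-802 means.

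**Figure D5:**
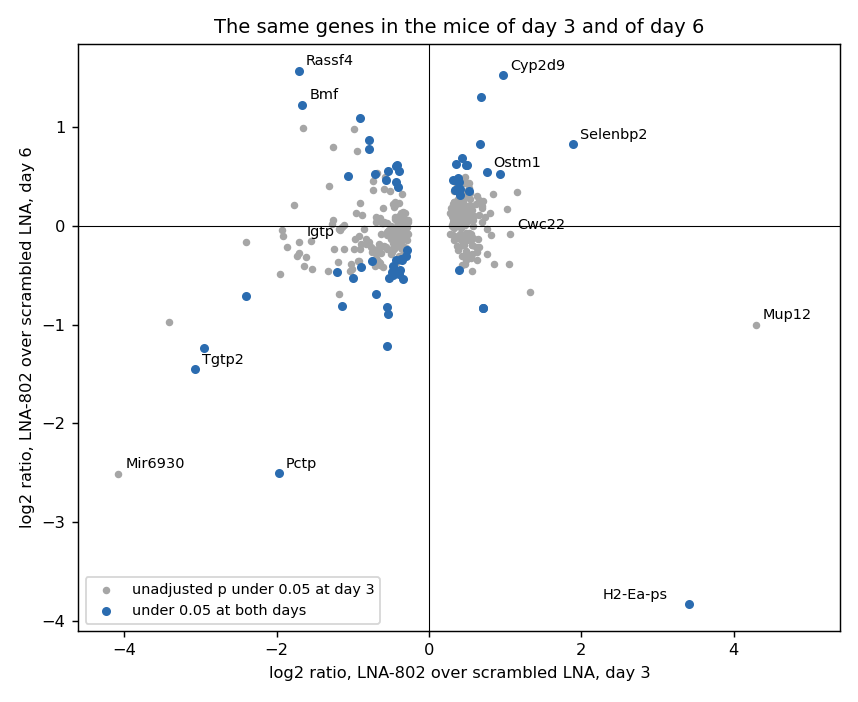
Log2 ratio of LNA-802 over scrambled LNA at day 3 (x axis) and day 6 (y axis) for the 385 genes at 1 FPKM or more with an unadjusted p under 0.05 at day 3, blue where day 6 is also under 0.05 (65 genes). Points in the upper right and lower left have the same sign at both days (262 genes).

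The position of the control group was compared for all genes. The scrambled mean at day 3 lay farther than the LNA-802 mean at day 3 from the average of both day 6 female groups for 245 of the 385 genes or 63.6%, against 53.5% of all 9418 genes: 111 of 161 higher and 134 of 224 lower. The scrambled group held 3 mice and the LNA-802 group 5. The sample titles carry a different prefix at each day, and the labels do not say what it stands for. The day, whatever this prefix marks and the smaller group cannot be told apart here. All genes together summed to 206757 FPKM in LNA-802 and 203841 FPKM in scrambled females, with 9242 genes in LNA-802 and 9234 in scrambled females at 1 FPKM or more.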

How the data were processed

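Liver poly(A) RNA was sequenced with directional libraries, per the labels' protocols. The submitters' processing notes name TopHat2, featureCounts, edgeR and the mm9 build; versions and the edgeR test used are not given in the sources used here. The authors deposited, per the file headers, a mean FPKM per group, and for each comparison a ratio, a p-value and its adjusted form. A signed fold change, the same ratio as a score that is negative below 1, was also deposited by the authors and not used further. Benjamini-Hochberg adjustment of the deposited p-value over all 24197 genes gave the authors' adjusted values within 1e-06.

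Because the table has neither counts nor values per mouse, no count test of its own was run: calls are the authors' edgeR adjusted p under 0.05. Genes at 1 FPKM or more in either group were kept. The log2 ratio is the log2 of the authors' ratio, LNA-802 over scrambled LNA, from their normalization, which lay 0.036 below the log2 ratio of the mean FPKM at the median; it can therefore take another sign than printed means that are nearly equal. Lists were described by counts and medians, with no set test. There are 45 lists with 720 genes of the table, and 5 listed genes were absent. The members and lists were chosen with earlier results of these data known. Named genes were those past the adjusted threshold, the 10 largest ratios on each side at an unadjusted p under 0.05, up to 4 members of each list by smallest unadjusted p, and 15 genes named always; members named beyond this, and all statements on day 6 and seed sites, were chosen after their values were seen.

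Seed sites were found by exact match in the longest 3' UTR of each gene (GENCODE, GRCm38), and promoter motifs in RefSeq windows (GRCm38.p6); the search was tested on simulated data. Python 3.11.15 with pandas 2.3.3, numpy 2.4.6, scipy 1.17.1 and matplotlib 3.10.9 was used. Mice were grouped by their labels. A few genes taken by the rule for named genes are not reported here.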

Additional observations from a re-analysis of the deposited data

How the results depend on the processing

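No paired analysis was possible because the table gives group means without values per mouse, and fits without single replicates, with a replicate block or with DESeq2 were not run for the same reason. The number of genes past the adjusted threshold was 4 with no filter on FPKM and 1 at 5 FPKM or more, against 2; it stayed 2 with an adjusted p under 0.1 and with the adjustment over genes at 1 FPKM alone. The number at an unadjusted p under 0.05 was 636 with no filter and 168 at 5 FPKM or more, and 128 genes were at an unadjusted p under 0.01, against 385; these follow from the number of genes tested and the threshold. The share of list members above a ratio of 1 moved in 37 of 194 settings over the 39 lists with at least 3 members, counted as moved when it left its 95% exact binomial interval, changed by over 1.5 times or crossed, reached or left 50%. This touched 20 lists, and 10 crossed, reached or left 50%. With the ratio of mean FPKM, at a pseudocount of 0.01 and of 1 alike, it was 66.7% for sterol uptake and SREBP control (40.0% with the authors' ratio), 68.8% for endothelial markers (50%), 70.0% for p53 genes (50%), 63.6% for the microRNA pathway (45.5%), 59.1% for male-biased genes (50%), 55.6% for bile acid genes (44.4%), 50% for xenobiotic genes (37.5%) and for oligonucleotide sensing (40.0%), 40.0% for complement and coagulation (24%), 11.1% for Kupffer cell markers (5.56%) and 100% for oxidative phosphorylation (95%); over all genes it was 63.0% (53.4%). At 5 FPKM or more it was 100% for late sterol, stellate cell and red blood cell genes, 55.6% for endothelial markers and male-biased genes, 50% for MHC class I and oligonucleotide sensing, 33.3% for Mup genes, and 0% for type I interferon-stimulated genes and Kupffer cell markers. With no filter it was 7.14% for type I interferon-stimulated genes, 51.9% for male-biased genes, 50% for cell cycle genes (100%) and 40.0% for reported targets (25.0%), and with the median over genes subtracted 11.1% for immediate early genes (22.2%). The GTPase, MHC class II and mevalonate lists moved in none of these settings. With a pseudocount of 1, 1 of 179 named genes, Clec4f, took the other sign. The share of day 3 genes with the same sign at day 6 lay between 64.3% and 68.3%. The median of genes with an 8mer was 0.015 at 5 FPKM or more, where genes with no site lay at 0.020. With the shortest UTR, an alternative chosen after seeing the data, the 8mer median was 0.029, and no value of genes without a site is given beside it. Levels under a few FPKM rest on few fragments, and the depth behind them is unknown.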
